A study of Mus musculus with 2 samples.

Results

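Sox10, Foxd3, Erbb3, Ngfr, Gfra3, Cdh19, Mbp and S100b are 8 genes used to recognise Schwann cells and other glia. These genes were followed in cultures of muscle cells labelled Pax7 KO and WT. They were taken by symbol from a table of 23235 genes, and each of the 8 was found on 1 row that shares its locus with no other row.

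The data comprise 2 polyA RNA-seq libraries of cultures described as activated satellite cells from the hind limb and back muscle of neonatal mice. The first is labelled Pax7 KO. Per the labels' protocols, deletion used a Pax7CreER/+ driver, a Pax7flox/flox allele and tamoxifen at 75 µg per g of body weight on 5 consecutive days from day 5. The Cre is named for Pax7, whose expression then sets which cells can lose the gene. The second is labelled WT; its alleles and any tamoxifen are not given in the sources used here, nor is the number of animals behind either culture. Pronase freed the cells from minced muscle, sedimentation enriched them, and they grew on Matrigel in medium with bFGF; no sort on surface markers is stated. With 1 library per genotype there was no replicate spread and no test, and every difference below is one between these 2 libraries.

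Schwann cells wrap and support the axons of peripheral nerves, including the motor nerves that enter muscle. They descend from the neural crest under the transcription factor Sox10, depend on neuregulin signals received by ErbB3 with its partner ErbB2, and in their mature form build myelin from proteins such as MBP. Cells that do not myelinate, and cells of injured or cultured nerve, are known for the low-affinity neurotrophin receptor p75, encoded by Ngfr. S100b, Ngfr and Mbp are not exclusive to glia: adipocytes and chondrocytes make S100b, several mesenchymal cells make Ngfr, and Mbp has transcripts in other cell types.

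Levels are given as deposited FPKM, fragments scaled to transcript length and library size, so that genes can be compared within a library. The log2 ratio is log2((KO FPKM + 1)/(WT FPKM + 1)); the added 1 understates the difference of low genes, and folds of single genes are ratios of FPKM. Most genes had higher deposited values in the KO library: over the 11751 genes with a mean FPKM of 1 or more the median log2 ratio was 0.42 (quartiles 0.21 and 0.64), and the median gene was 1.42-fold higher in FPKM. Ratios are therefore also given relative to that median gene. Depth, recovered from the whole-number steps of low values, was about 22300000 fragments in KO and 26800000 in WT, if no further scaling had been applied. Intervals are 95% exact counting intervals from the estimated fragments; they are approximate and cover counting error only. As a check of the labels, Pax7 stood at 0.769 FPKM in KO and 3.21 FPKM in WT, and the myogenic factor Myf5 at 1.58 FPKM in KO and 14.8 FPKM in WT.

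Transcripts of all 8 markers were listed above the lowest value in both libraries. The 8 members, of which Ngfr was the most abundant, summed to 106 FPKM in KO and 75.9 FPKM in WT, a 1.40-fold difference beside 1.42-fold for the median gene. Of the 8, 7 had a mean FPKM of 1 or more, and their median log2 ratio was 0.49, beside 0.42 over all genes. None of the 7 was at least 2-fold higher and none at least 2-fold lower, where 5.06% of all genes were higher and 0.689% lower by that limit. Relative to the median gene the counts were again none and none, against 1.35% higher and 1.45% lower of all genes. Without the pseudocount 1 of the 7, S100b, was at least 2-fold higher, against 10.2% of all genes, and none was at least 2-fold lower, against 1.0%. With a limit of 1.5-fold and the pseudocount 2 of the 7, Cdh19 and S100b, were higher, against 30.0% of all genes, and none was lower, against 1.43%. None of the 8 stood in the authors' deposited table of higher genes (3.07% of all genes) or of lower genes (1.64%).

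The order of the levels was the same in the 2 libraries: Ngfr, Sox10, Mbp, Foxd3, Cdh19, Erbb3, S100b and Gfra3, from high to low. In KO the counting intervals of Sox10 and Mbp overlapped, as did those of Erbb3 and S100b. In WT those of Mbp and Foxd3 overlapped. The other neighbours in the order had intervals that did not overlap. In WT, however, the lower end for Sox10 (11.66 FPKM) was close to the upper end for Mbp (11.54 FPKM). Ngfr exceeded Sox10 by 2.95-fold in KO and by 2.91-fold in WT. Relative to Sox10, Mbp stood at 0.934 in KO and 0.878 in WT, and Erbb3 at 0.156 in KO and 0.152 in WT. Cdh19 stood at 0.340 of Sox10 in KO and 0.239 in WT, and S100b at 0.151 in KO and 0.101 in WT. The proportions among the markers were thus close between the cultures for Ngfr, Mbp and Erbb3, and further apart for Cdh19, S100b and Foxd3. Foxd3 went the other way from Cdh19 and S100b, since Sox10 exceeded it by 1.81-fold in KO and by 1.28-fold in WT. In a bulk culture, fewer cells of a type and less RNA per cell cannot be told apart.

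**Figure D1:**
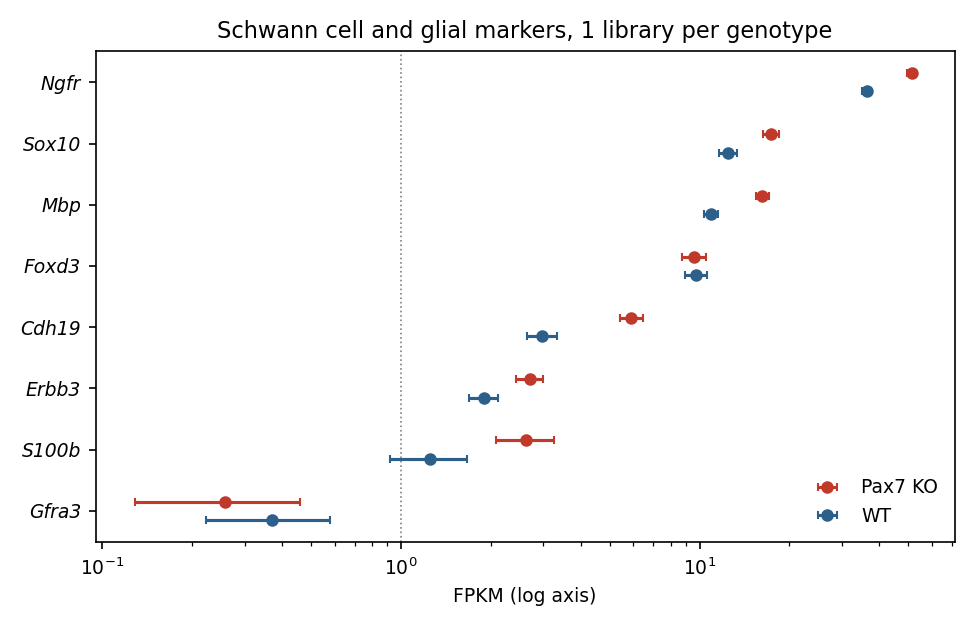
FPKM (log axis) of the 8 Schwann cell and glial markers in the Pax7 KO library (red, upper point of each gene) and the WT library (blue, lower point), with 95% counting intervals; the dotted line marks 1 FPKM. Ngfr was highest, at 51.3 FPKM in KO and 36.3 FPKM in WT, and Gfra3 lowest, at 0.257 FPKM in KO and 0.371 FPKM in WT.

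The 2 transcription factors differed from each other. Sox10 (chromosome 15, 78985343 to 78994920, mm9), the SoxE factor that directs glial fate and switches on myelin genes, stood at 17.4 FPKM in KO and 12.5 FPKM in WT. The values rested on about 1046 fragments in KO and 900 in WT. The log2 ratio of Sox10 was 0.45 as deposited. Against the median gene it was 0.03 with the pseudocount and -0.02 without it, and with upper-quartile scaling it was -0.02, so its direction turns on the scaling and the pseudocount. Foxd3 (chromosome 4, 99322990 to 99325362), a forkhead factor of neural crest and early glial precursors, stood at 9.60 FPKM in KO and 9.74 FPKM in WT. It rested on about 480 and 585 fragments. The deposited values of Foxd3 thus differed little, with a log2 ratio of -0.02 and a counting interval without a pseudocount of -0.20 to 0.15. That interval contains 0 and lies below the 0.50 of the median gene, and relative to the median gene the log2 ratio of Foxd3 was -0.44. Sox10 was 1.81 times as abundant as Foxd3 in KO and 1.28 times in WT.

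The upstream sequence of Foxd3, which lay below the median gene, is shown beside those of Ngfr and S100b, which did not. RefSeq promoter entries on GRCm38.p6 were at hand for 3 of the 8 members. Bases -250 to -51 from the annotated start are printed 5′ to 3′ on the gene's strand. They were searched on both strands for ACAAAG and ACAATG, cores bound by Sox factors, for GTCACG, a core bound by paired domains, for TAATTG, a core bound by homeodomains, and for TGACGTCA, the cyclic AMP response element. The motifs were chosen after the expression values were seen, and TGACGTCA was added after the Foxd3 sequence had been read. Capitals mark the matches.
Foxd3 (chr4:99656049-99656248, plus strand): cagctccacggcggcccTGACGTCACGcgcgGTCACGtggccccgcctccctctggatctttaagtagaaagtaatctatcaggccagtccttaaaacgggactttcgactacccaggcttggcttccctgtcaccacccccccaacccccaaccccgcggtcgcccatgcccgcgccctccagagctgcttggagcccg
Ngfr (chr11:95587749-95587948, minus strand): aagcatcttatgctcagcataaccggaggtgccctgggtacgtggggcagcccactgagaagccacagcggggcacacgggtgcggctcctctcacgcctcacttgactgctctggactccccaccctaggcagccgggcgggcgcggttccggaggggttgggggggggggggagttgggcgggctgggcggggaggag
S100b (chr10:76253586-76253785, plus strand): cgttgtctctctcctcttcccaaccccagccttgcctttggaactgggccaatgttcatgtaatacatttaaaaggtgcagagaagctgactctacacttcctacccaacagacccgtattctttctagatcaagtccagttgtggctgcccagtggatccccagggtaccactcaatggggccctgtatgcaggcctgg

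Foxd3 held GTCACG at 2 positions of this window, beginning at -229 and -219 from the annotated start. The first overlaps a TGACGTCA match that begins at -233. Among 32851 windows of the same length, 4.84% held GTCACG and 0.828% held TGACGTCA. Both motifs contain the pair CG, of which the Foxd3 window held 16, against a median of 4 over all windows. The shares were not matched for CG content, so they do not give the rate for windows like that of Foxd3. None of the motifs was found in the Ngfr or S100b window, and ACAAAG (13.6% of all windows), ACAATG (8.94%) and TAATTG (6.11%) were found in none of the 3. The windows of Ngfr and Foxd3 were rich in G and C, at 70.0% and 64.5%, against a median of 51.5% over all windows, while that of S100b was at 52.0%. A match describes the letters of the sequence and not binding.

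The 3 receptors covered the whole range of levels. Ngfr (chromosome 11, 95430140 to 95449012), the p75 receptor that binds all neurotrophins, stood at 51.3 FPKM in KO and 36.3 FPKM in WT. With about 3848 fragments in KO and 3267 in WT it was the best measured member, and it ranked 1200th of all genes by level in KO and 1219th in WT. Its log2 ratio of 0.49 was 0.07 above the median gene, and the counting interval without a pseudocount, 0.43 to 0.57, contained the median gene's 0.50. Erbb3 (chromosome 10, 128006424 to 128026557), the neuregulin receptor of the Schwann lineage, stood at 2.71 FPKM in KO and 1.90 FPKM in WT, on about 358 and 301 fragments. The log2 ratio of Erbb3 was 0.35 as deposited and -0.07 against the median gene. It was 0.01 against the median gene without a pseudocount and 0.01 with upper-quartile scaling, so its sign turns on the scaling and the pseudocount. Gfra3 (chromosome 18, 34849557 to 34880041), the co-receptor for artemin, stood at 0.257 FPKM in KO and 0.371 FPKM in WT, below the limit of a mean FPKM of 1. It rested on about 11 fragments in KO and 19 in WT, and its interval of -1.74 to 0.62 held both 0 and the median gene. A difference in Gfra3 was therefore not detectable at this depth.

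Cdh19, Mbp and S100b, the structural and calcium-binding members, had the 3 highest ratios. Cdh19 (chromosome 1, 112785772 to 112873949), a type II cadherin of Schwann cell precursors, stood at 5.90 FPKM in KO and 2.98 FPKM in WT, 1.98-fold higher. It had the largest log2 ratio of the members, 0.79 as deposited and 0.37 relative to the median gene. Its interval of 0.78 to 1.20 without a pseudocount lay above the median gene's 0.50, on about 505 fragments in KO and 305 in WT. Mbp (chromosome 18, 82644515 to 82755029), the myelin basic protein gene, stood at 16.2 FPKM in KO and 10.9 FPKM in WT, with a log2 ratio of 0.53, or 0.11 relative to the median gene. The deposited value covers the whole gene, for which GENCODE lists 16 transcripts, so the myelin and non-myelin transcripts of Mbp cannot be separated. S100b (chromosome 10, 75716581 to 75724064), a calcium-binding protein, stood at 2.63 FPKM in KO and 1.25 FPKM in WT, 2.09-fold higher. With the pseudocount its log2 ratio was 0.69, and 0.27 relative to the median gene. It rested on about 82 fragments in KO and 47 in WT, and its interval of 0.53 to 1.61 began just above the median gene.

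Of the 8 counting intervals without a pseudocount, those of Sox10, Erbb3, Ngfr, Mbp and Gfra3 contained the median gene. Foxd3 lay below it, and Cdh19 and S100b lay above it. Of 10591 genes above the expression limit with a known transcript length, 31.1% had intervals above the median gene and 31.8% below it, so the 2 markers above and 1 below, of 7 past that limit, are no larger share than among all genes. These statements carry counting error alone, since variation between cultures could not be measured.

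**Figure D2:**
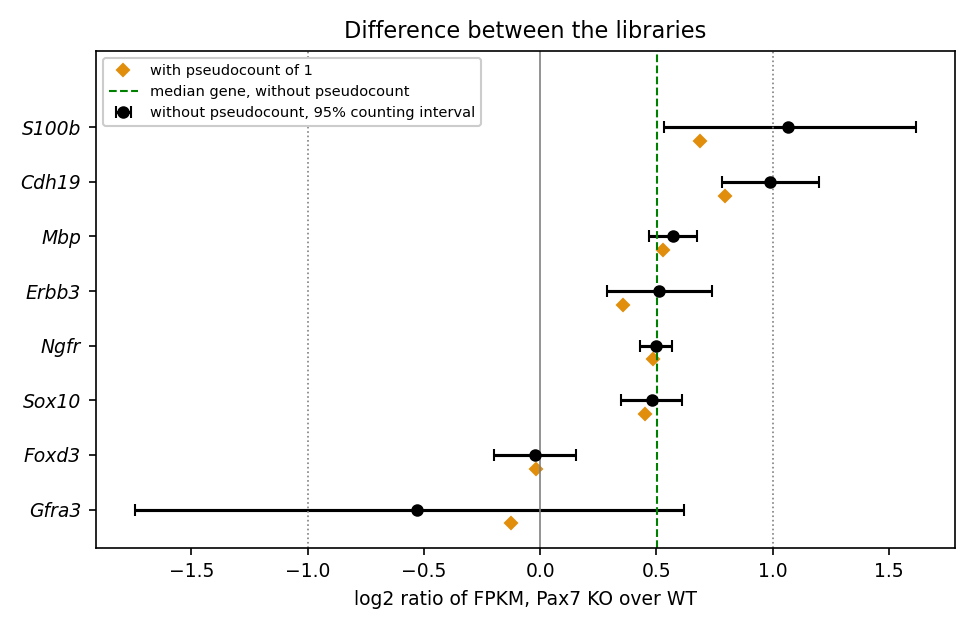
Log2 ratio of FPKM, Pax7 KO over WT, for each of the 8 markers without a pseudocount (black, with 95% counting interval) and with a pseudocount of 1 (orange); the dashed line is the median gene without a pseudocount, and dotted lines mark 2-fold. The intervals of Sox10, Ngfr, Erbb3 and Mbp hold the median gene at 0.50, Foxd3 lies at -0.02, and Gfra3 has an interval of -1.74 to 0.62.

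The label of the markers was checked against other genes of the lineage, which the members did not include. Of 17 further myelin genes of Schwann cells, 12 had a mean FPKM of 1 or more, with a median log2 ratio of 0.47. Pmp22, a membrane protein of peripheral myelin that fibroblasts also make, stood at 38.2 FPKM in KO and 19.6 FPKM in WT. Cnp, an enzyme of myelinating glia, stood at 18.4 FPKM in KO and 12.0 FPKM in WT, and Egr2, the transcription factor of myelination, at 5.57 FPKM in KO and 3.46 FPKM in WT. Of the 12, none was at least 2-fold higher, against 5.06% of all genes, and 1 was at least 2-fold lower, against 0.689%. The lower gene was Drp2, a dystrophin relative that binds periaxin, at 0.970 FPKM in KO and 2.95 FPKM in WT, with a log2 ratio of -1.42 relative to the median gene. In the authors' deposited table of lower genes Drp2 had a KO to WT fold of 0.329. Gjc3, a connexin gene of glia, stood at 18.3 FPKM in KO and 19.7 FPKM in WT, and like Foxd3 lay below the median gene, with a log2 ratio relative to it of -0.52. Periaxin itself (Prx) stood at 1.32 FPKM in KO and 0.824 FPKM in WT. Without the pseudocount, 1 of the 12, the connexin Gjb1, was at least 2-fold higher, against 10.2% of all genes. Gjb1 stood at 1.86 FPKM in KO and 0.869 FPKM in WT, on about 62 and 35 fragments. Its counting interval of 0.47 to 1.73 contained the median gene's 0.50.

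Genes of Schwann cell precursors and of immature or non-myelinating Schwann cells were examined next. Of 18 such genes 12 passed the expression limit, with a median log2 ratio of 0.58, or 0.16 relative to the median gene, none past 2-fold in either direction. Of the 12, 10 were above the median gene and 2 below it. Fabp7, a fatty acid carrier of precursors, stood at 5.61 FPKM in KO and 2.34 FPKM in WT, a log2 ratio of 0.98, and was in the authors' deposited table of higher genes with a fold of 2.40. Gap43, a growth-associated membrane protein, stood at 12.1 FPKM in KO and 6.90 FPKM in WT, and Sox2, a factor of immature glia whose locus is shared with other rows, at 5.46 FPKM in KO and 3.29 FPKM in WT. Cadm4, an adhesion molecule of the myelinating surface, was the most abundant, at 39.3 FPKM in KO and 28.3 FPKM in WT. Gfap, the filament protein of non-myelinating cells, was low, at 0.278 FPKM in KO and 0.242 FPKM in WT. Without the pseudocount 3 of the 12 passed 2-fold, all upwards, against 10.2% of all genes: Fabp7, Pou3f1, a factor of the promyelinating stage, and Gpr126, the adhesion receptor needed for myelination. Of the 12, Ncam1, a cell adhesion molecule that myoblasts also make, was the 1 below 0, at 7.01 FPKM in KO and 8.26 FPKM in WT; its locus is shared with another row.

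Markers of related lineages were mostly low. Of 10 oligodendrocyte and astrocyte markers 8 were under 1 FPKM in both libraries, among them Olig2, at 0.0665 FPKM in KO and 0.174 FPKM in WT, and Mog, at 0.192 FPKM in KO and 0.298 FPKM in WT. The sum of all 10 was 6.13 FPKM in KO and 3.07 FPKM in WT. The 1 above the limit, Aldh1l1, a folate enzyme also found outside the brain, stood at 2.62 FPKM in KO and 0.448 FPKM in WT. Slc1a3, below the limit, stood at 1.08 FPKM in KO and 0.208 FPKM in WT. These 2 genes supplied most of the difference between the sums, and both were in the authors' deposited table of higher genes. Of 11 melanocyte markers 7 were under 1 FPKM in both, and Mlana was at the lowest listed value of 0.001 in both. Tyr, the enzyme tyrosinase, was at 5.22 FPKM in KO and 5.37 FPKM in WT, whereas Dct, an enzyme of the same pathway, was at 0.369 FPKM in KO and 0.103 FPKM in WT. Kit and Ednrb, receptors that endothelial and other cells also use, made up most of the melanocyte list's 73.6 FPKM in KO and 37.9 FPKM in WT. Kit stood at 20.4 FPKM in KO and 12.3 FPKM in WT, and Ednrb at 45.8 FPKM in KO and 18.8 FPKM in WT. The log2 ratio of Ednrb was 1.24 as deposited and 0.82 relative to the median gene. In the authors' deposited table of higher genes Ednrb had a fold of 2.43. Of 16 neuron markers 13 were under 1 FPKM in both. Tubb3, a tubulin that dividing cultured cells also make, stood at 43.7 FPKM in KO and 28.9 FPKM in WT and supplied most of that list's sum of 50.2 FPKM in KO and 35.5 FPKM in WT.

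SoxE and neural crest factors as a list had a lower median than the 8 markers. Of 13 such genes 8 passed the limit, with a median log2 ratio of 0.02 and none past 2-fold as deposited. The list was split, with 4 of the 8 above 0 and 4 below. Above 0 were Ets1, at 32.1 FPKM in KO and 17.9 FPKM in WT, Twist1, at 6.75 FPKM in KO and 3.78 FPKM in WT, Id3, at 242 FPKM in KO and 171 FPKM in WT, and Sox9. Below 0 were Snai1, Snai2, Tfap2a and Zic1, a zinc finger factor at 1.40 FPKM in KO and 2.24 FPKM in WT. Relative to the median gene, 1 was at least 2-fold lower: Snai2, a zinc finger factor of crest and mesenchyme, at 7.72 FPKM in KO and 12.1 FPKM in WT. The authors' deposited table of lower genes held Snai2, with a KO to WT fold of 0.636, and Zic1, with 0.625. Sox9, the SoxE relative of Sox10 that also works in cartilage, stood at 15.7 FPKM in KO, with a log2 ratio of 0.16 over WT; Sox10 was 1.10 times as abundant as Sox9 in KO and 0.892 times in WT. Sox8, the third SoxE gene, was low, at 0.794 FPKM in KO and 0.578 FPKM in WT. Tfap2a, an early crest factor, stood at 9.39 FPKM in KO and 10.3 FPKM in WT and was the gene closest to Foxd3. Pax3, the paired-box relative of Pax7, stood at 0.256 FPKM in KO and 0.254 FPKM in WT.

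For each member above the limit, the 2 closest of 209 genes on the other lists were found by the distance between their log2(FPKM + 1) values over the 2 libraries. The 2 genes closest to Sox10 included the myelin gene Cnp, at a distance of 0.09. Foxd3 was closest to Tfap2a (0.08), Erbb3 to Kcna1, a potassium channel (0.05), and Cdh19 to Sox2 (0.14). Mbp was closest to the endothelial receptor Flt1 (0.03). Ngfr was closest to the glucose transporter Slc2a1 (0.20) and the pericyte receptor Pdgfrb (0.30), and S100b to S100a3 (0.04). With 2 libraries such closeness describes level and ratio alone.

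The partners and ligands of Erbb3 were measured as well. Erbb2, the kinase partner without a ligand of its own, stood at 5.43 FPKM in KO and 3.83 FPKM in WT, 2.01 times the level of Erbb3 in KO and 2.02 times in WT. Egfr stood at 4.93 FPKM in KO and 4.60 FPKM in WT, and Erbb4 was at 0.107 FPKM in KO and 0.224 FPKM in WT. Nrg1, the axonal neuregulin that signals to Schwann cells, was low, at 0.951 FPKM in KO and 0.923 FPKM in WT. Nrg4, an adipose neuregulin, stood at 1.89 FPKM in KO and 1.15 FPKM in WT, while Nrg2 and Nrg3 were under 0.22 FPKM in both. Of the 8 ErbB and neuregulin genes 4 passed the limit, none past 2-fold in either direction, with a median log2 ratio of 0.38. The ratio of Erbb2 to Erbb3 was thus nearly equal in the 2 cultures. The loci of Erbb2, Nrg2, Nrg3 and Nrg4 are shared with other rows.

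Other receptors of neurotrophins had lower levels than Ngfr. Ntrk2, the receptor kinase of BDNF, stood at 1.34 FPKM in KO and 1.29 FPKM in WT, and Ngfr exceeded it by 38.3-fold in KO and 28.2-fold in WT. Ntrk3, the receptor kinase of neurotrophin-3, stood at 0.319 FPKM in KO and 0.522 FPKM in WT. Among the ligands, Bdnf stood at 1.19 FPKM in KO and 0.772 FPKM in WT, and Ntf3 at 0.939 FPKM in KO and 0.542 FPKM in WT. Sort1, the sortilin co-receptor of p75, stood at 3.96 FPKM in KO and 2.09 FPKM in WT. Ntf5, which encodes neurotrophin-4, a muscle-derived ligand, was the 1 gene of 5 above the limit that was at least 2-fold lower relative to the median gene, at 1.20 FPKM in KO and 2.31 FPKM in WT. The authors' deposited table of lower genes held Ntf5 with a KO to WT fold of 0.521. None of the 5, which include Ngfr, was past 2-fold as deposited.

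**Figure D3:**
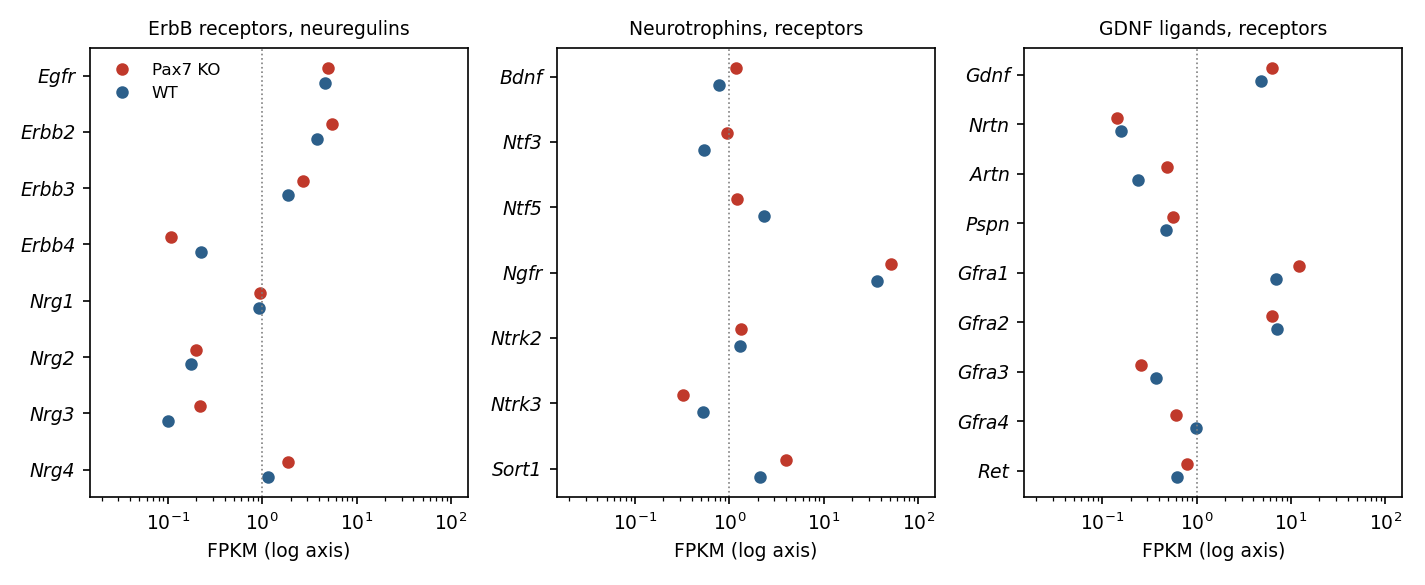
FPKM (log axis) in the Pax7 KO library (red, upper points) and the WT library (blue, lower points) of ErbB receptors and neuregulins, neurotrophin ligands and receptors beside Ngfr, and GDNF family ligands and receptors; the dotted line marks 1 FPKM. Ngfr is the highest gene shown, at 51.3 FPKM in KO and 36.3 FPKM in WT, and Gfra3 lies below 1 FPKM in both.

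Gfra3 was the lowest of the GDNF family receptors. Gfra1, the GDNF co-receptor, stood at 12.1 FPKM in KO and 6.93 FPKM in WT, and Gfra2, the neurturin co-receptor, at 6.34 FPKM in KO and 7.16 FPKM in WT. Ret, the signalling kinase they share, stood at 0.796 FPKM in KO and 0.613 FPKM in WT. Artn, the ligand of Gfra3, was at 0.491 FPKM in KO and 0.240 FPKM in WT, on about 23 and 13 fragments, while Gdnf itself stood at 6.22 FPKM in KO and 4.75 FPKM in WT. Of the 9 genes 3 passed the limit, none past 2-fold in either direction, with a median log2 ratio of 0.33.

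S100b and Cdh19 were also set against their families. S100b was one of the less abundant of 15 S100 genes, and S100a1, its close relative in muscle and cartilage, exceeded it by 25.8-fold in KO and 21.7-fold in WT. Of 15 genes above the limit on that list, which holds S100b itself and the S100 receptor Ager, 7 exceeded 2-fold upwards and none downwards, with a median log2 ratio of 0.83. The 7 were S100a1, S100a6, S100a7a, S100a8, S100a9, S100a13 and S100a16, with S100a9, a calprotectin subunit of granulocytes, at 52.7 FPKM in KO and 9.97 FPKM in WT. Relative to the median gene 3 remained past 2-fold, S100a8, S100a9 and S100a13. Of 13 type II cadherins 4 passed the limit: the endothelial Cdh5, at 170 FPKM in KO and 103 FPKM in WT, the mesenchymal Cdh11, at 7.64 FPKM in KO and 5.07 FPKM in WT, Cdh24 and Cdh19. Cdh7, the nearest gene to Cdh19 on its side of lower coordinates, at 750 kb, stood at 0.0274 FPKM in KO and 0.0457 FPKM in WT.

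Markers of other cell types, of which only some make any of the members, were also compared between the libraries. Adipocyte markers summed to 1265 FPKM in KO and 247 FPKM in WT, and 10 of the 10 above the limit were at least 2-fold higher, with a median log2 ratio of 2.36. Cartilage markers summed to 190 FPKM in KO and 47.9 FPKM in WT, with 3 of 4 at least 2-fold higher and the cartilage collagen Col2a1 at 170 FPKM in KO and 42.0 FPKM in WT; Matn1 stood near 0.12 FPKM in both. Endothelial markers had a median log2 ratio of 0.78 with 3 of 10 at least 2-fold higher, and summed to 769 FPKM in KO and 397 FPKM in WT. Pericyte and smooth muscle markers had a median of 0.45, with 2 of 9 at least 2-fold higher, and fibroblast markers one of 0.72, with 1 of 8. Leukocyte markers had a median of 0.41, with none of 3 past 2-fold. Basal keratinocyte markers, which share Ngfr with glia, summed to 57.0 FPKM in KO and 4.12 FPKM in WT, with 3 of 4 at least 2-fold higher. The part of these cell types in the values of S100b, Cdh19 and Ngfr was not tested. Satellite cell and myoblast markers went the other way, with a median log2 ratio of -1.25 and 4 of 7 at least 2-fold lower.

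**Figure D4:**
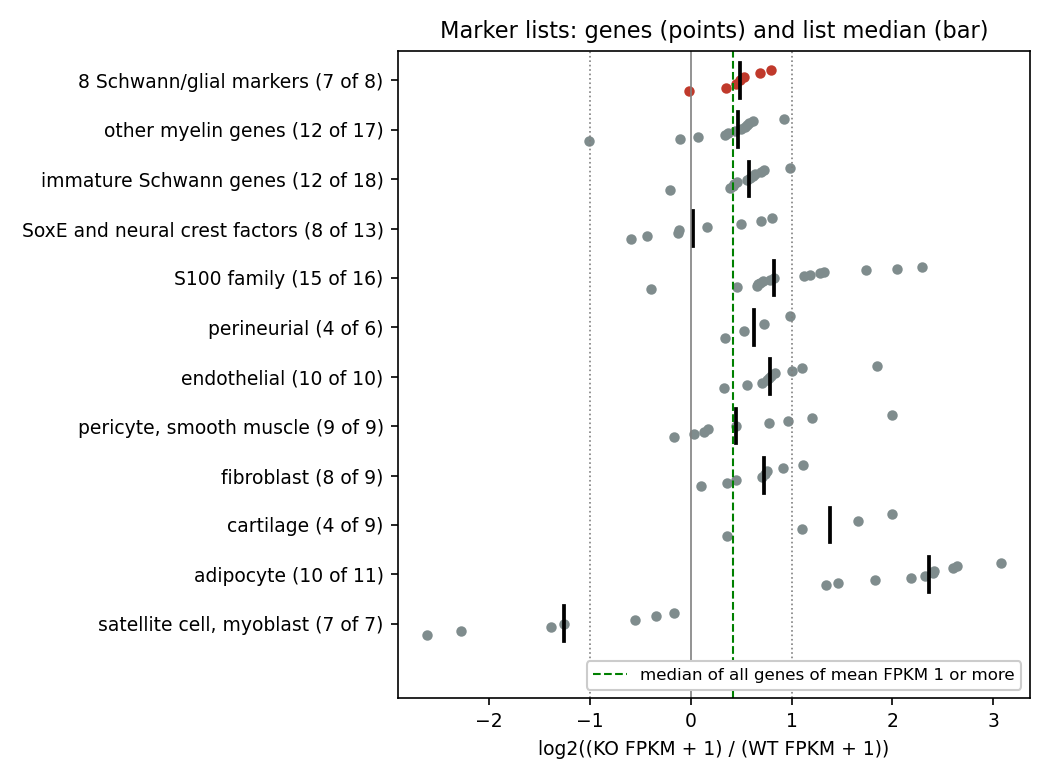
Log2 ratio, Pax7 KO over WT with a pseudocount of 1, of the genes with a mean FPKM of 1 or more on each list (points; how many of how many listed genes passed is given beside the name), with the list median as a bar; the dashed line is the median of all genes, 0.42, and dotted lines mark 2-fold. The 8 markers (7 shown, red, median 0.49) and the other myelin genes (median 0.47) lie near the median gene, adipocyte markers (median 2.36) above it and satellite cell markers (median -1.25) below it; S100b is also on the S100 list.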

How the data were processed

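The authors deposited 1 FPKM column for the Pax7 KO library and 1 for WT, per the file headers. They also deposited 2 lists of genes with a fold, the ratio of KO to WT, per the file headers; how genes entered them is not stated in those headers or the labels. TopHat2 2.0.9, Cufflinks 2.1.1, Cuffdiff 2.1.1 and mm9 appear in the submitters' processing notes without roles. The lowest value, 0.001, stood in 2590 KO rows and 2031 WT rows. Strand use: not given in the sources used here.

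Rows of the 1 repeated symbol were summed. Log2 ratios used a pseudocount of 1, a mean FPKM limit of 1 and a 2-fold limit. Members and the 20 other gene lists were chosen with earlier results of these data known. Named were members, receptor, ligand, SoxE, S100 and cadherin genes, list genes past 2-fold, the 3 most abundant per list, nearest genes and neighbours. Prx, Gjb1, Gfap, Egr2, Fabp7, Pou3f1, Gpr126, Olig2, Mog, Mlana, Dct, Matn1 and Cldn1 were added after their values were seen. Some genes of these lists are not reported here. Of 225 list entries 225 were found, 3 by an older symbol.

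Depth was fitted on genes with a single GENCODE M21 transcript longer than 500 nt. With 80 nt taken off each length, 65.4% of low KO values (1299 genes) and 63.5% of low WT values (1307 genes) lay within 0.1 of a whole fragment, so the fragments are estimates. Fragments of a gene were estimated with the length of its longest GENCODE transcript, and Mbp has 16, Sox10 has 4 and Cdh19 has 2. Intervals were exact (Poisson for levels, Clopper-Pearson for ratios). To each deposited start 1 was added: end minus start equalled the RefSeq gene length at 6960 of 17380 loci and fell 1 short at 438. Steps were tested on simulated data. Calculations used Python 3.11.15 with numpy 2.4.6 and pandas 2.3.3. Intervals came from scipy 1.17.1 and plots from matplotlib 3.10.9.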

Additional observations from a re-analysis of the deposited data

How the results depend on the processing

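No paired analysis was possible because each genotype has 1 library. The count of the 7 markers at least 2-fold higher, 0 as reported, was 1 with a pseudocount of 0.1 and 1 with no pseudocount (S100b in both), and 2 with a 1.5-fold limit (S100b and Cdh19), against 30.0% of all genes. The count at least 2-fold lower was 0 under each of the 10 alternatives. The median log2 ratio of the markers, 0.49 as deposited, was 0.0662 after centring on the median gene and 0.0099 with upper-quartile scaling; with the other alternatives that give a median it lay between 0.4682 and 0.5118. Both scalings moved the ratios of 6 of 8 markers by more than their counting interval and changed the sign of 1, Erbb3 with centring (-0.0661) and Sox10 with upper-quartile scaling (-0.0155). The remaining alternatives (pseudocounts, rows of one locus summed, highest row of a repeated symbol) moved none beyond it. What depth limits is Gfra3, at about 11 fragments in KO and 19 in WT, and S100b, at about 82 and 47. With 1 library per genotype, variation between cultures is unknown.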

Other observations

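Perineurial cells form the sheath around nerve fascicles, and 4 of 6 of their markers were above a mean FPKM of 1. The glucose transporter Slc2a1, which many dividing cells also make, stood at 59.1 FPKM in KO and 35.3 FPKM in WT, Itgb4, a laminin receptor subunit whose locus is shared with another row, at 5.07 FPKM in KO and 3.81 FPKM in WT, and Moxd1 at 2.53 FPKM in KO and 1.44 FPKM in WT. Perp, a desmosome-associated membrane protein that epidermis also makes, had the largest log2 ratio of them, 0.99, at 4.32 FPKM in KO and 1.68 FPKM in WT. Cldn1, the tight junction protein of the perineurium, was lower, at 0.878 FPKM in KO and 0.650 FPKM in WT. None of the 4 was past 2-fold with the pseudocount, and 1, Perp, was higher by that limit without it, against 10.2% of all genes.

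Among the genes beside the members, Polr2f, an RNA polymerase subunit 3.15 kb from Sox10, stood at 130 FPKM in KO and 81.3 FPKM in WT, a log2 ratio of 0.67, beside 0.45 for Sox10. Pa2g4, 3.43 kb from Erbb3, stood at 129 FPKM in KO and 126 FPKM in WT, a log2 ratio of 0.03, beside 0.35 for Erbb3. Zfp236, 7.96 kb from Mbp, had a log2 ratio of 0.40, and Dip2a, 1.73 kb from S100b, one of 0.33.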
